A study of Mus musculus with 2 samples.

Results

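The 9 genes described here encode proteins that take up, make, bind, sense and break down retinoic acid. They are Stra6, Dhrs3, Aldh1a2, Crabp1, Crabp2, Rara, Rarb, Rarg and Cyp26a1, and they were picked by name out of 29453 genes in the deposited tables of spliced and unspliced molecules. All 9 were detected, from 1758 spliced molecules for Dhrs3 to 148978 for Crabp1.

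The cells came from 6 pooled chimeric mouse embryos at E8.5 (E8.6 by the label of tdTom-). Embryonic stem cells of 1 clone that carried tdTomato and a 38 bp frameshift in exon 4 of Gata1, the gene of the main erythroid transcription factor, had been injected into C57BL/6 blastocysts. Sorting gave a tdTom+ fraction (Gata1- cells of the clone) and a tdTom- fraction (wildtype cells of the host), with 1 droplet library each, so no value below has a replicate and no test between the fractions could be made. A host cell and a cell of the clone differ in Gata1, in the clone and in where injected cells settle, and these cannot be told apart here.

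Retinoic acid is a small lipophilic signal made from vitamin A. STRA6 takes up retinol from its carrier in the blood, RDH10 oxidizes it to retinal, DHRS3 reduces retinal back to retinol, and ALDH1A2 makes retinoic acid from retinal. CRABP1 and CRABP2 bind the acid in the cytoplasm, and the receptors RARA, RARB and RARG, each paired with an RXR, bind it in the nucleus on DNA elements built of repeated units. CYP26A1 hydroxylates the acid and so removes it. In the embryo of this age, the synthesis gene is known from the trunk mesoderm and the breakdown gene from the tail end, and the acid is known to act on the progenitors that leave the tail bud.

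Rarb and Cyp26a1, of the 9 genes, had a direct repeat close to a start site. Its letters are of the kind of element that these receptors are known to bind. Promoter windows from 250 bases before to 50 after a start were found in RefSeq (GRCm38.p6) for 8 of the 9 genes, all but Crabp2. They were searched on both strands for 2 repeat units in the same direction and 5 bases apart. A unit was AGGTCA, or with G as its first letter GGGTCA, or with T before the last T AGTTCA, or with both changes GGTTCA. Of all 32851 windows 32 held such a pair, or 0.0974%. The only windows of the 9 genes with one were those of Rarb and Cyp26a1, shown here 5′ to 3′ along the gene with the units in capitals.
Rarb, minus strand, chr14:16575427-16575726: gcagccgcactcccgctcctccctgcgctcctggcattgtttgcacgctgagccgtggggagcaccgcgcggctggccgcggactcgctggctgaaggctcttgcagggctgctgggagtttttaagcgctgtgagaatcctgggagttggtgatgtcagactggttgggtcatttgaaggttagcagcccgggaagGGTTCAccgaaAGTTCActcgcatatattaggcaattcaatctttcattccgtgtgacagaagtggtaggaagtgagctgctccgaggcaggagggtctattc
Cyp26a1, plus strand, chr19:37697558-37697857: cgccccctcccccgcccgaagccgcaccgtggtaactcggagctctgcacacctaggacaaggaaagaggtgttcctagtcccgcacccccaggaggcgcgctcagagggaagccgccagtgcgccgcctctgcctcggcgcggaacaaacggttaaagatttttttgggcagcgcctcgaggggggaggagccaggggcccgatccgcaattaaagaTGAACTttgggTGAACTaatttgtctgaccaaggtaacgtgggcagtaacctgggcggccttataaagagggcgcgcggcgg

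In Rarb the pair ran along the gene and covered chr14:16575513-16575529, from base -53 to base -37 counted from the start site of the window. This was the only Rarb window, and it lay inside the gene, whose upstream end in GENCODE vM21 is chr14:16819156. No window covered that end. In Cyp26a1 the pair lay on the opposite strand, so the printed capitals are its reverse complement. It covered chr19:37697776-37697792, from base -32 to base -16. No pair with a spacing of 1 or 2 bases was found in a window of the 9 genes, where 0.222% and 0.268% of all windows held one. Of 34 other genes of the pathway, 21 had a window and 0 of them held a pair with a spacing of 5. A match of letters is a description of the window and says nothing about binding in these cells.

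Cells were clustered on the spliced counts without the 9 genes and without those 34 pathway genes. The lists of 10 leading genes, which took part in naming the clusters, kept them and held Aldh1a2, Crabp2, Fgf8 and Rbp4 among others. The 17308 cells left after removal of doublets fell into 34 clusters, and clusters that share a marker class were joined into 25 lineages, of which 24 had at least 50 cells and 18 had at least 50 cells of each fraction. A lineage is called "-like" after its markers, and 6 clusters without a clear class are called by their leading genes. The spinal cord-like cluster had 3 of 7 markers of that class raised. The visceral endoderm-like cluster had 8 of 8 raised, but also 6 of mid- and hindgut endoderm, with Spink1 and Pyy among its leading genes. The cluster led by Lhx1 and Arg1, with Osr1 among its leading genes, had markers of splanchnic and of intermediate mesoderm and stayed unnamed. The libraries held 167940767 spliced molecules in 8981 tdTom+ cells and 157174026 in 9252 tdTom- cells, and 18 barcodes occurred in both. Blood split by fraction, with 1409 tdTom- and 2 tdTom+ erythroid-like cells and 978 tdTom+ and 1 tdTom- blood progenitor-like cells, and Gata1 itself stood at 6.55 CPM in all tdTom+ and 28.0 CPM in all tdTom- cells. These counts of transcripts do not read the frameshift.

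Levels are unique molecules (UMIs) of the spliced layer scaled to the summed spliced UMIs of the same cells as counts per 1e6 (CPM), with exact Poisson 95% intervals in brackets, which cover counting error only. Blood cells, myeloid-like cells included, gave the background of free RNA, since they are not known to express most of these genes. In 1633 tdTom+ and 1481 tdTom- blood cells, Aldh1a2 stood at 1.10 and 1.08 CPM, Cyp26a1 at 0.931 and 0.734 CPM, Rarb at 0.423 and 0.280 CPM, Crabp1 at 12.0 and 12.5 CPM and Crabp2 at 10.2 and 5.31 CPM. Values near these are read as background. The tdTom+ blood cells included 978 blood progenitor-like cells and 445 of the cluster led by Spi1 and Myb. The tdTom- blood cells included 1409 erythroid-like ones. The backgrounds of the fractions therefore differ in cell type as well, and the part of each was not tested.

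**Figure D1:**
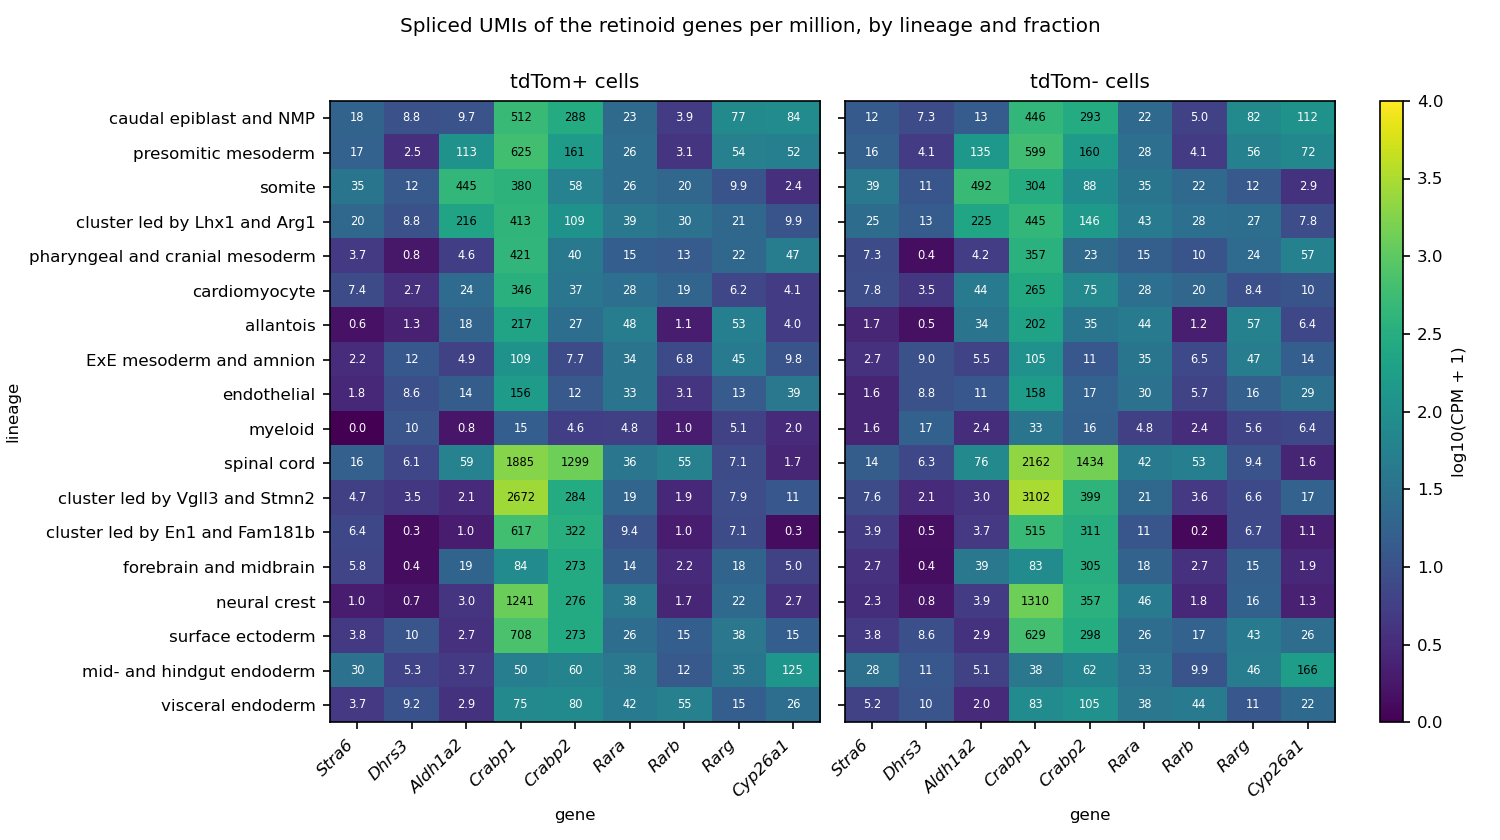
Levels of the 9 genes (columns, ordered from uptake to breakdown) in the 18 lineages with at least 50 cells of each fraction (rows), for tdTom+ cells on the left and tdTom- cells on the right. The number in each box is the spliced CPM and the colour its log10 after adding 1. The bright boxes sit in the same rows on both sides, such as Aldh1a2 in somite (445 and 492 CPM) and Crabp2 in spinal cord (1299 and 1434 CPM).

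Stra6, the membrane receptor through which cells take up retinol, was highest in notochord-like cells in the tdTom+ and in somite-like cells in the tdTom- fraction. The somite-like level was 35.2 CPM in the tdTom+ and 39.2 CPM in the tdTom- fraction, and 37.3 (33.5 to 41.4) in both together. The notochord-like level of 43.2 (31.8 to 57.5) rested on 85 cells and hid a split, with 65.0 CPM (45.8 to 89.6, 37 UMIs) in the 45 tdTom+ and 19.3 CPM (9.25 to 35.5, 10 UMIs) in the 40 tdTom- cells, above the somite-like level in the first fraction and below it in the second. Next came mid- and hindgut-like endoderm at 29.0 CPM (24.3 to 34.3) and the cluster led by Lhx1 and Arg1 at 22.7 CPM (20.6 to 25.1), and the presomitic mesoderm-like level of 16.4 CPM and the caudal epiblast-like level did not differ from each other beyond counting error when fractions were pooled (17.8 CPM in tdTom+ and 12.4 CPM in tdTom- caudal cells). The caudal epiblast-like level joined 2 clusters that differed. Stra6 stood at 21.0 CPM (18.9 to 23.4) in the one led by Epha5 and Fgf8. In the one led by Cdx4 and Hoxd1 it stood at 7.89 CPM (6.47 to 9.52), below the presomitic level. In myeloid-like cells, 0 UMIs were found in tdTom+ and 2 in tdTom- cells. With fractions pooled and cells thinned to 5000 UMIs, somite-like cells led for Stra6, at 37.2 CPM against 25.9 CPM in notochord-like cells. They also led at a coarser clustering (26.3 CPM), where notochord-like cells were not apart.

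Dhrs3, the reductase that returns retinal to retinol, was low in all 24 lineages and spread over many. Its levels in notochord-like (15.6), myeloid-like (11.9), somite-like (11.3), Lhx1-led (11.0) and extraembryonic mesoderm and amnion-like cells (10.6 CPM) did not differ between neighbours in that order when fractions were pooled. The notochord-like level came from 22.8 CPM (13 UMIs) in tdTom+ and 7.71 CPM (4 UMIs) in tdTom- cells, and in tdTom- cells it lay below the other 4. Joined lineages hid part of its pattern. In the endothelial-like cluster led by Lyve1 it stood at 18.5 CPM (15.1 to 22.5), against 3.06 CPM (2.05 to 4.39) in the one led by Etv2. In the surface ectoderm-like cluster led by Wnt6 it stood at 20.1 CPM, against 13.1 CPM (9.15 to 18.1) in the one led by Tac2 and 2.34 CPM (1.56 to 3.35) in the one led by Dlx5. In the En1-led neural cluster and in pharyngeal mesoderm-like cells, 3 UMIs were found in each.

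Aldh1a2, the gene of the enzyme that makes retinoic acid, marked the trunk mesoderm. In somite-like cells it stood at 445 CPM (426 to 465) in the tdTom+ and 492 CPM (472 to 512) in the tdTom- fraction. The cluster led by Lhx1 and Arg1 followed with 216 and 225 CPM, and presomitic mesoderm-like cells with 113 and 135 CPM. These 3 mesoderm lineages were separated from each other by more than counting error, by 2.13-fold and 1.76-fold. Outside mesoderm the level was highest in spinal cord-like cells, with 59.1 CPM in the tdTom+ and 75.7 CPM in the tdTom- fraction, and in forebrain and midbrain-like cells, with 18.7 and 38.7 CPM. In surface ectoderm-like, visceral endoderm-like and neural crest-like cells it lay between 2.41 and 3.51 CPM.

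The cardiomyocyte-like lineage was not uniform in Aldh1a2. Of the 3 cardiomyocyte-like clusters, the one led by Sfrp5, Wnt2 and Tbx5, genes known from the venous pole, held 68.2 CPM (62.3 to 74.5). Its fractions differed, with 49.7 CPM (43.0 to 57.2) in tdTom+ and 90.5 CPM (80.5 to 102) in tdTom- cells. The one led by Igfbpl1, Tlx1 and Isl1, the last a gene of the second heart field, held 15.2 CPM, and the one led by Myl3 and Actc1, genes of the contractile apparatus, held 2.91 CPM (1.67 to 4.73). The first cluster raised 6 of 7 cardiomyocyte and 5 splanchnic mesoderm markers, the second 4 and 3, and the third 7 and 3. The lineage may thus hold cells other than cardiomyocytes. Over the 3 clusters together, the log2 fold of tdTom+ over tdTom- was -0.89 (-1.13 to -0.65). Blood held 1.10 and 1.08 CPM.

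Crabp1 and Crabp2, the cytoplasmic binding proteins, were both highest in neural cells. Crabp2 was highest in spinal cord-like cells, and Crabp1 in another neural cluster, except at a coarser clustering, where spinal cord-like cells led for it too (2054 against 1832 CPM). Crabp1 stood at 2672 and 3102 CPM in the tdTom+ and tdTom- cells of the neural cluster led by Vgll3 and Stmn2, at 1885 and 2162 CPM in spinal cord-like cells and at 1241 and 1310 CPM in neural crest-like cells. Forebrain and midbrain-like cells, neural as well, had 83.7 and 82.7 CPM, far below the Vgll3-led cluster. Crabp2 stood at 1299 and 1434 CPM in spinal cord-like cells, 3.95-fold above the next lineage. The remaining neural lineages lay together, with 347, 322, 316 and 296 CPM in the Vgll3-led cluster, in neural crest-like cells, in the En1-led cluster and in forebrain and midbrain-like cells, and caudal epiblast-like cells had 290 CPM.

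Within the caudal epiblast-like lineage the binding proteins were high in different clusters. The cluster led by Epha5 and Fgf8, with T and Nkx1-2, held 496 CPM of Crabp2 (486 to 507) and 257 CPM of Crabp1 (249 to 265). The cluster led by Cdx4 and Hoxd1, which also raised 3 splanchnic mesoderm markers, held 45.5 CPM of Crabp2 (42.0 to 49.2) and 741 CPM of Crabp1 (726 to 755). Both fractions showed this, with Crabp2 at 505 and 488 CPM in the first cluster and at 40.6 and 50.5 CPM in the second.

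The 3 receptor genes were high in different lineages. Rara was broad outside blood, from 46.4 CPM in allantois-like cells through 22.4 CPM in caudal epiblast-like and 16.9 CPM in forebrain and midbrain-like cells to 10.1 CPM in the En1-led cluster. In blood it was at 4.80 CPM in myeloid-like, 2.34 CPM in erythroid-like and 1.18 CPM in the Spi1-led blood cells. Rarb was highest in spinal cord-like cells, with 54.9 CPM in the tdTom+ and 53.1 CPM in the tdTom- fraction, and in visceral endoderm-like cells, with 55.2 and 43.7 CPM, and these 2 lineages did not differ beyond counting error when fractions were pooled. It then stood at 29.2 CPM (26.7 to 31.8) in the Lhx1-led cluster, at 21.0 CPM in somite-like and at 19.4 CPM in cardiomyocyte-like cells. Rarg was highest in caudal epiblast-like cells, at 76.9 and 82.2 CPM. Presomitic mesoderm-like (54.9) and allantois-like cells (54.0 CPM) followed and did not differ from each other. Within the caudal lineage Rarg stood at 87.4 CPM (82.5 to 92.5) in the Cdx4-led cluster, which also raised 3 splanchnic mesoderm markers. The Epha5-led cluster held 73.0 CPM (68.9 to 77.3).

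Read as a mix, the spliced receptor UMIs were mostly Rarg in caudal cells. Rara and Rarb took larger shares in trunk mesoderm and spinal cord-like cells. In caudal epiblast-like cells Rarg made up 74.2% of the UMIs of the 3 genes in tdTom+ and 75.2% in tdTom- cells, Rara 22.0% and 20.2%, and Rarb 3.81% and 4.56%. In presomitic mesoderm-like cells Rarg made up 63.9% (60.7 to 67.1), Rara 31.7% and Rarb 4.31%. In somite-like cells Rara had the largest share at 48.8% (44.7 to 52.9), with 33.7% for Rarb (29.9 to 37.7) and 17.5% for Rarg (14.5 to 20.8), and in the Lhx1-led cluster the order was the same, at 43.4%, 31.0% and 25.6%. Rarb had the largest share in spinal cord-like cells, at 53.3% (50.7 to 55.8), with 38.5% for Rara and 8.22% for Rarg. In the spliced layer the summed receptor level was alike at both ends, at 106 CPM in caudal epiblast-like and 101 CPM in spinal cord-like cells. Most Rarb UMIs were unspliced, and with both layers summed Rarb alone stood at 153 CPM in spinal cord-like cells. The mix over both layers and the mix within the caudal clusters were not computed. UMI shares compare lineages, since capture can differ between genes.

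**Figure D2:**
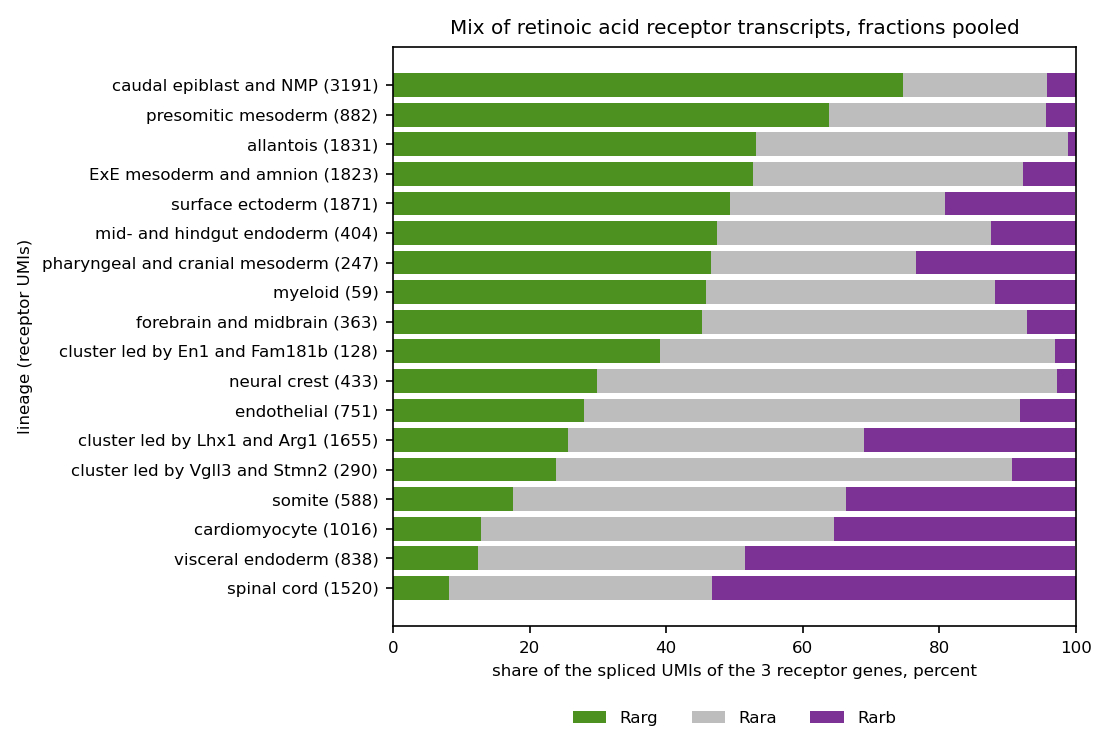
Share of Rarg, Rara and Rarb among their summed spliced UMIs in the 18 lineages, fractions pooled, ordered by the share of Rarg. The number beside each lineage is the count of receptor UMIs. Rarg takes 74.7% in caudal epiblast and 8.22% in spinal cord, where Rarb takes 53.3%.

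Cyp26a1, the breakdown gene, stood highest in mid- and hindgut-like endoderm and at the tail end. Mid- and hindgut-like endoderm held 125 CPM (110 to 142) in the tdTom+ and 166 CPM (151 to 182) in the tdTom- fraction, caudal epiblast-like cells 83.8 and 112 CPM, and presomitic mesoderm-like cells 52.2 and 71.5 CPM. Of the 2 caudal clusters, the one led by Epha5 and Fgf8 held 158 CPM (152 to 164), within counting error of the gut, and the one led by Cdx4 and Hoxd1 held 27.5 CPM. Away from these lineages, pharyngeal and cranial mesoderm-like cells held 52.1 CPM (46.0 to 58.8) and endothelial-like cells 34.8 CPM (31.9 to 37.9). It was low in somite-like cells at 2.65 CPM (1.72 to 3.92) and in spinal cord-like cells at 1.67 CPM (1.08 to 2.46), of which the first lay above the intervals of blood and the second overlapped them.

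Aldh1a2 and Cyp26a1 were therefore high in different lineages, with presomitic mesoderm as the one in which both stood above 50 CPM. Across the 33 clusters of at least 50 cells, Pearson's r of their log2(CPM + 10) was -0.02. Rarb and Cyp26a1, the genes with the pair of units, had an r of 0.09 over the same clusters. The highest value between 2 of the 9 genes was 0.72, for Crabp1 and Crabp2, followed by 0.57 for Aldh1a2 with Stra6 and for Rara with Rarg. With a pseudocount of 1 in place of 10, r was 0.13 for Aldh1a2 with Cyp26a1 and 0.24 for Rarb with Cyp26a1. Crabp1 with Crabp2 (0.74) still led, followed by Rara with Rarg (0.69). Aldh1a2 with Stra6 and Cyp26a1 with Rarg (both 0.59) came next. Clusters share their library and depth, so these values are descriptions.

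**Figure D3:**
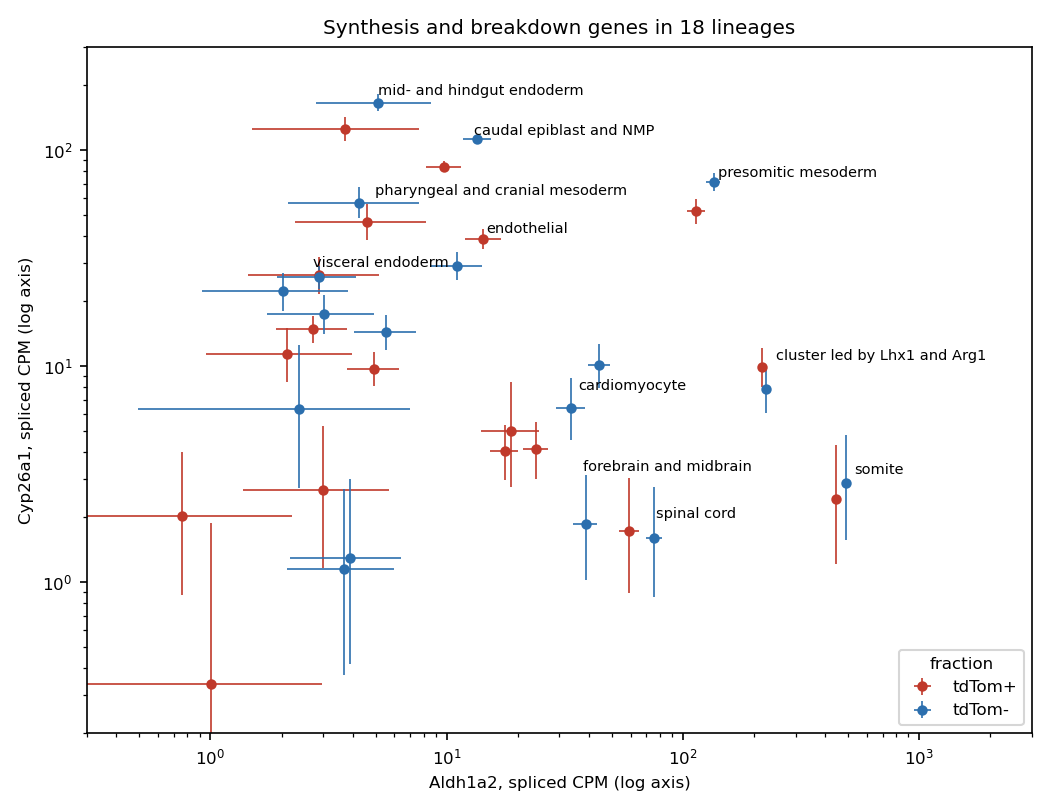
Level of Aldh1a2 (horizontal, spliced CPM, log axis) against Cyp26a1 (vertical, spliced CPM, log axis) in 18 lineages, 1 point per lineage and fraction (red tdTom+, blue tdTom-, names beside some of the points), with exact Poisson 95% intervals as bars (bars that reach below an axis are cut there). Somite lies at the far right at Cyp26a1 levels of 2.42 and 2.87 CPM, mid- and hindgut endoderm at the top left, and presomitic mesoderm at the top right, with 113 CPM of Aldh1a2 and 52.2 CPM of Cyp26a1 in tdTom+ and 135 and 71.5 CPM in tdTom-.

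At an even and low depth, single presomitic cells seldom had UMIs of both genes. A cell without a UMI can still hold the transcript. After each cell was thinned to 5000 spliced UMIs, which left out 29 shallower cells, 154 of 631 presomitic mesoderm-like cells had an Aldh1a2 UMI (24.4%), 117 had a Cyp26a1 UMI (18.5%) and 7 had both, or 1.11% (exact binomial interval 0.447 to 2.27). The product of the separate shares would be 4.53%. Without thinning, the share with both and its product were higher, and the share again lay below the product. Cyp26a1 was found in 4.55% of the cells with an Aldh1a2 UMI and in 23.1% of the cells without one. Both fractions showed fewer such cells than the product, with 5 cells (1.87% against 3.80%) in tdTom+ and 2 cells (0.549% against 5.08%) in tdTom-. The interval in tdTom+ (0.611 to 4.32) held the product and that in tdTom- (0.0666 to 1.97) did not. These intervals count cells of 1 library and leave out the error of the product. They are no test and do not compare the fractions. In caudal epiblast-like cells, 24 of 1753 had both (1.37%), close to the product of 1.17%. In 1377 thinned erythroid-like cells, which should lack both genes, 0.654% had an Aldh1a2 UMI, 0.290% a Cyp26a1 UMI and 0 had both (exact binomial upper limit 0.268%, or 0.218% by the limit of 3 counts). Median depths before thinning were 14786.5 UMIs in presomitic and 18965 in erythroid-like cells.

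The presomitic cells were then divided by UMIs of T, the caudal gene Brachyury, and of Mesp2 and Ripply2, genes of the next somite to form. This split was chosen after values had been seen. In 373 cells with T and neither Mesp2 nor Ripply2, Cyp26a1 stood at 99.4 CPM (91.6 to 108) and Aldh1a2 at 77.2 CPM (70.4 to 84.5). In 236 cells with none of the 3, Cyp26a1 was at 8.68 CPM (5.81 to 12.5) and Aldh1a2 at 136 CPM (124 to 149). In 37 cells with Mesp2 or Ripply2 and no T, Cyp26a1 was at 4.93 CPM, from 3 UMIs, and Aldh1a2 at 521 CPM (465 to 581). Both fractions had the order of Aldh1a2, at 79.1, 129 and 374 CPM in tdTom+ and 75.7, 141 and 616 CPM in tdTom- cells. For Cyp26a1 both were higher in the first group (81.3 and 114 CPM) than in the second (4.12 and 12.2 CPM), and the third held 3 UMIs in 12 tdTom+ and 0 in 25 tdTom- cells. A further 14 cells had T together with Mesp2 or Ripply2.

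**Figure D4:**
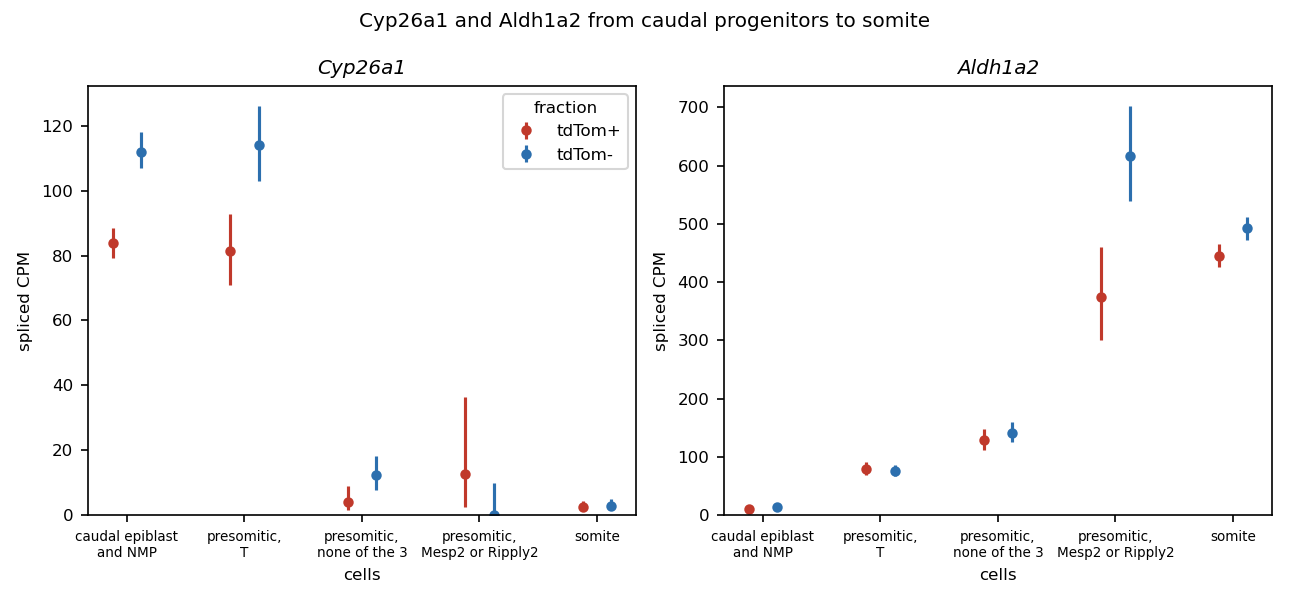
Cyp26a1 (left) and Aldh1a2 (right) as spliced CPM on linear axes in caudal epiblast-like cells, the 3 groups of presomitic cells and somite-like cells, for tdTom+ (red) and tdTom- (blue), with exact Poisson 95% intervals. Cyp26a1 is above 80 CPM in the first 2 places of both fractions and below 13 CPM in the last 3, while Aldh1a2 rises to 374 and 616 CPM in the cells with Mesp2 or Ripply2.

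Rarg was at 61.6 CPM (55.5 to 68.2) in the cells with T and at 52.1 CPM (44.6 to 60.4) in the cells with none of the 3, with overlapping intervals, and at 13.1 CPM (5.67 to 25.9), from 8 UMIs, in the cells with Mesp2 or Ripply2. The somite-like level was 10.9 CPM. Crabp2 stood at 201, 89.4 and 154 CPM (37 UMIs) in the same order in tdTom+ and at 190, 121 and 62.5 CPM (23 UMIs) in tdTom- cells, so the fractions shared a higher level in the first group than in the second but not the place of the third. Crabp1 stood at 599, 653 and 506 CPM with fractions pooled.

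The unspliced layer set Rarb apart from the other 8 genes. Of its UMIs, 70.2% (69.0 to 71.4) were unspliced in tdTom+ and 74.0% (72.9 to 75.1) in tdTom- cells, against 13.1% and 13.4% over all genes. The shares pooled over fractions were 20.9% for Dhrs3, 16.0% for Rara, 15.3% for Rarg, 10.6% for Aldh1a2, 7.77% for Stra6, 1.12% for Crabp1, 0.997% for Cyp26a1 and 0.232% for Crabp2. Over the lineages with at least 50 Rarb UMIs the share ran from 68.4% (65.6 to 71.1) in surface ectoderm-like to 77.8% (69.2 to 84.9) in forebrain and midbrain-like cells. In GENCODE vM21 (GRCm38), Rarb spans 388 kb on chr14:16430839-16819156 with 383 kb of intron, the next longest being Stra6 with 84.4 kb and Aldh1a2 with 78.2 kb. Crabp1, Crabp2 and Cyp26a1, the genes with the lowest shares, have 7.56, 3.39 and 1.76 kb of intron. Dhrs3, Rara and Rarg have 32.5, 42.8 and 18.3 kb, less than Stra6 and Aldh1a2 but with higher shares, so the 2 orders differed. No annotated gene overlaps Rarb on its strand, and Top2b and Gm48162 do on the other. Stra6 (chr9:58063788-58153996) overlaps Gm16131 on its strand and Ccdc33 on the other, Rara (chr11:98927818-98974942) overlaps Gm22061 on its strand, and Aldh1a2 (chr9:71215789-71296243) overlaps Gm48124 on the other, so reads could be shared there too. Whether strand was used in counting is not given in the sources used here, and priming inside introns was not tested. With both layers summed, Rarb became highest in visceral endoderm-like cells, at 166 CPM against 153 CPM in spinal cord-like cells.

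The unspliced share of Aldh1a2 differed between lineages. It was 8.99% (8.20 to 9.83) in somite-like and 9.17% (7.72 to 10.8) in presomitic mesoderm-like cells, 18.9% (15.3 to 22.9) in caudal epiblast-like and 18.6% in forebrain and midbrain-like cells, and 5.57% (3.91 to 7.67) in cardiomyocyte-like cells. The share over all genes moved little between these lineages, from 13.6% in caudal epiblast-like to 15.1% in forebrain and midbrain-like cells, with 14.2% in both somite-like and cardiomyocyte-like cells.

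The comparison of tdTom+ with tdTom- cells asked whether the pattern differed between Gata1- and wildtype cells of the same lineage. Over the 18 lineages, r of log2(CPM + 10) between the fractions ran from 0.910 for Dhrs3 to 0.988 for Rarb and Crabp1. A pair of gene and lineage was counted as past the rule when its fold was at least 2 and its exact conditional 95% interval left out 0 on the log2 scale, among pairs with at least 50 UMIs. Of 162 pairs 123 had the UMIs, and 4 of them (3.25%) were past the rule, all 4 lower in tdTom+. The same rule took 1.54% of 157643 pairs over all genes, 1.05% in that direction, and with 4 pairs the share among the 9 genes is not well fixed. With thinned cells 1 of 87 pairs was lower by the rule (1.15%), near the 0.957% of all genes under that setting. At a Leiden resolution of 1, 9 of 116 pairs were lower (7.76%), against 1.33% of all genes. The median log2 fold was -0.11 over the 123 pairs of the 9 genes and -0.03 over the pairs of all genes. By gene it was lowest for Cyp26a1 at -0.43 and Crabp2 at -0.37 and highest for Crabp1 at 0.06.

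The pairs past the rule were Cyp26a1 and Crabp2 in cardiomyocyte-like cells, Aldh1a2 in forebrain and midbrain-like cells and Crabp1 in myeloid-like cells. Each of the 4 fell under the rule in at least 1 alternative, since doublets kept gave -0.49, -0.85 and -0.35 for Cyp26a1, Crabp2 and Crabp1, and both layers summed gave -0.87 for Aldh1a2. Cyp26a1 was at 4.12 CPM (46 UMIs) in the tdTom+ and 10.1 CPM (75 UMIs) in the tdTom- fraction of cardiomyocyte-like cells, or a log2 fold of -1.30 (-1.86 to -0.75). Crabp2 was at 36.7 and 74.9 CPM in the same cells, or a log2 fold of -1.03 (-1.22 to -0.84). The clusters of this lineage held different shares of the fractions (234 and 212, 251 and 129, and 182 and 138 tdTom+ and tdTom- cells in the Sfrp5-led, Tlx1-led and Myl3-led ones), and the part of this in the folds was not tested. Within them, Crabp2 was past the rule in the Sfrp5-led one at -1.23 and Cyp26a1 in the Tlx1-led one at -1.55. Aldh1a2 was at 18.7 CPM (52 UMIs) and 38.7 CPM (289 UMIs) in forebrain and midbrain-like cells, or a log2 fold of -1.05 (-1.51 to -0.62). Crabp1 in myeloid-like cells was at 14.9 CPM (11.4 to 19.3) in tdTom+ cells, near the background of 12.0 CPM in blood, and at 33.4 CPM (24.0 to 45.1) in the 69 tdTom- cells, or a log2 fold of -1.16 (-1.76 to -0.55). This lineage had 6.25% of all genes past the rule. The blood background includes these myeloid-like cells, and blood progenitor-like cells alone held 12.3 CPM of Crabp1.

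2 allantois-like clusters were joined, of which one, led by Cdkn1c and Phlda2, held 245 tdTom- and 0 tdTom+ cells and the other, led by Tbx4 and Pitx1, 690 tdTom+ and 110 tdTom- cells. In the second, Aldh1a2 was at 17.6 CPM in the tdTom+ and 73.0 CPM in the tdTom- fraction, or a log2 fold of -2.06 (-2.37 to -1.73), the lowest for the 9 genes among the clusters with at least 50 UMIs. Cyp26a1 in the same cluster was at 4.04 and 11.9 CPM (log2 fold -1.56). The 245 tdTom- cells of the first cluster were close to the tdTom+ cells of the second, with 15.5 CPM of Aldh1a2 (11.9 to 19.9) and 3.94 CPM of Cyp26a1 (2.25 to 6.41), so both folds rested on the 110 tdTom- cells. In the joined lineage they were -0.93 and -0.67, under the rule. In the opposite direction, Cyp26a1 stood at 47.4 CPM in the tdTom+ and 20.7 CPM in the tdTom- fraction of the Lyve1-led endothelial cluster, or a log2 fold of 1.19 (0.71 to 1.70), and at 33.7 and 34.0 CPM in the Etv2-led one.

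At the tail end the differences were smaller than 2-fold. Cyp26a1 was lower in tdTom+ by a log2 fold of -0.42 (-0.53 to -0.32) in caudal epiblast-like, -0.45 (-0.69 to -0.22) in presomitic mesoderm-like and -0.41 (-0.64 to -0.18) in mid- and hindgut-like endoderm cells. Within the caudal clusters it was -0.46 (-0.58 to -0.35) in the Epha5-led and 0.14 (-0.16 to 0.44) in the Cdx4-led one, and with doublets kept the gut value was -0.06. Aldh1a2 had log2 folds of -0.14 (-0.23 to -0.06) in somite-like and -0.06 (-0.15 to 0.04) in Lhx1-led cells. The intervals hold counting error only, and the spread between embryos is not known.

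**Figure D5:**
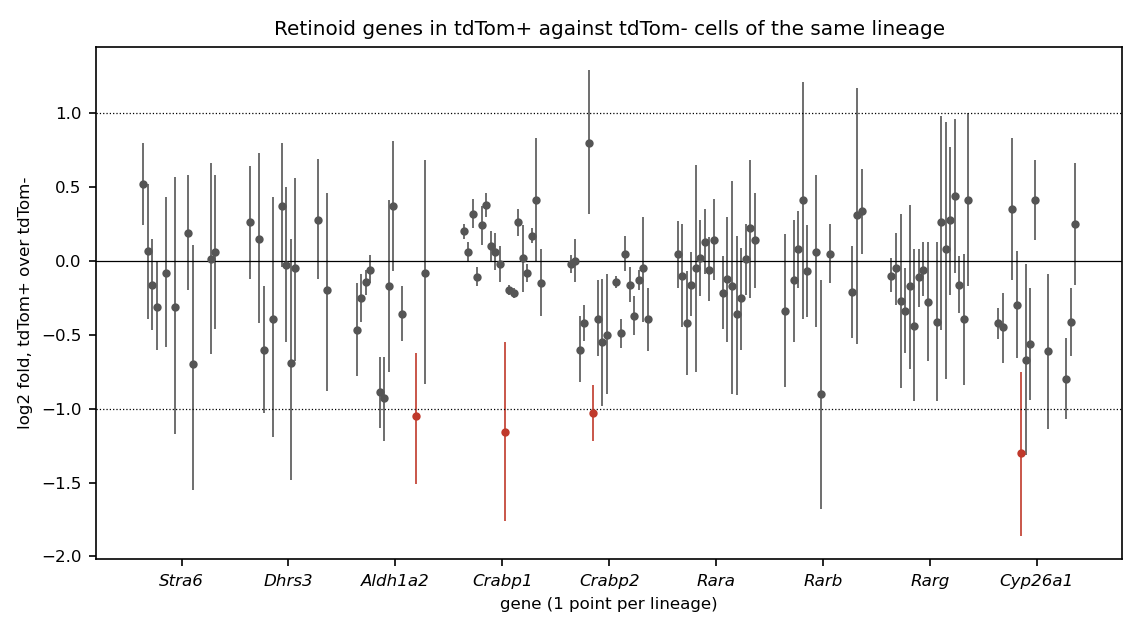
log2 fold of tdTom+ over tdTom- for the 9 genes, 1 point per lineage with at least 50 UMIs, with exact conditional 95% intervals as bars. Dotted lines mark a fold of 2. The 4 red points, for Aldh1a2, Crabp1, Crabp2 and Cyp26a1, are the pairs past the rule, all lower in tdTom+.

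The rest of the pathway, 34 genes listed by role, gave 15 of 371 pairs past the rule (4.04%), 3 higher and 12 lower in tdTom+, against the 1.54% of all genes. Transport and storage of retinol took 8 of its 37 pairs (21.6%), all lower, against 1.89% for oxidation, 3.31% for genes known to respond to the acid, 2 of 25 pairs for caudal FGF ligands and 0 for the other roles. Among the 12 were Rbp4, the carrier of retinol in the blood, in 3 lineages and its partner Ttr in 4. Rbp4 in visceral endoderm-like cells was at 795 CPM in the tdTom+ and 3637 CPM in the tdTom- fraction (log2 fold -2.19, -2.25 to -2.14), and Ttr at 1232 and 4727 CPM (-1.94). This lineage had 4.74% of all genes past the rule, 48 higher and 367 lower. It also raised gut markers, and whether its 249 tdTom+ and 306 tdTom- cells were of the same kind was not tested. Rbp4 and Ttr encode secretory products of the yolk sac endoderm. In mid- and hindgut-like endoderm Ttr was at 67.0 and 206 CPM and Rbp4 at 30.8 and 94.2 CPM. The other 3 pairs of Rbp4 and Ttr, both genes in surface ectoderm-like and Ttr in caudal epiblast-like cells, lay between 1.02 and 7.03 CPM. Erythroid-like cells, almost all tdTom-, held 3.51 CPM of Ttr and 2.23 CPM of Rbp4, and blood progenitor-like cells, almost all tdTom+, 1.22 and 0.704 CPM, and the part of free RNA in these 3 pairs, which are among the 8, was not tested. Rdh10 was lower in visceral endoderm-like cells (8.63 and 23.1 CPM). Cdx1 and Hoxb1 were higher in allantois-like cells (5.85 and 1.52 CPM, 5.85 and 1.86 CPM). That lineage includes the Cdkn1c-led cluster of 245 tdTom- and 0 tdTom+ cells, and the part of this in the 2 folds was not tested. Cdx1 was also higher in mid- and hindgut-like endoderm (66.4 and 31.4 CPM), and Nr2f1 lower in cardiomyocyte-like cells (29.5 and 77.1 CPM). Fgf8 in extraembryonic mesoderm-like cells (1.72 and 4.18 CPM) and Fgf17 in the Vgll3-led cluster (3.50 and 7.39 CPM) were lower too.

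Genes of neighbouring steps were high partly in the lineages of the 9 and partly elsewhere. Rdh10, which makes retinal, was highest in the Lhx1-led cluster (74.0 CPM, 70.1 to 78.2) and in somite-like cells (59.8 CPM), the 2 lineages with the most Aldh1a2. The other retinal dehydrogenases were scarce, with Aldh1a3 highest at 2.61 CPM in surface ectoderm-like and Aldh1a1 at 2.81 CPM in mid- and hindgut-like endoderm cells. Of the other breakdown genes, Cyp26c1 was highest in pharyngeal and cranial mesoderm-like cells (14.6 CPM) and Cyp26b1 in the Vgll3-led neural cluster (11.5 CPM). Fgf8, a ligand of the tail bud that opposes retinoic acid, was highest in mid- and hindgut-like endoderm (299 CPM) and caudal epiblast-like cells (271 CPM), the same pair that led for Cyp26a1. Among genes known to respond to the acid, Meis2 was highest in somite-like cells (460 CPM), and Hoxb1, Hoxb4 and Hoxd4 in presomitic mesoderm-like cells (240, 167 and 8.37 CPM). Rxrb, a receptor partner, had its highest levels in myeloid-like (49.9), spinal cord-like (48.7) and neural crest-like cells (48.2 CPM).

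The genes whose pattern over the 33 clusters was most like each of the 9 were named by Pearson's r of log2(CPM + 10) among 10945 genes. For Aldh1a2 these were Meox1 (0.78), Tcf15 and Wfdc21 (both 0.73), for Cyp26a1 Etv4 (0.79), Epha5 (0.75) and Tlx2 (0.72), and for Rarg Msx1 (0.87), Ptk7 and Itgb5. Rarb was most like Rcan1 (0.75), Crabp1 most like Ddx39b (0.84), Crabp2 most like Elovl2 (0.91), Stra6 most like Smoc1 (0.80), Rara most like Luzp1 (0.85) and Dhrs3 most like Arl1 (0.73). Meox1 and Tcf15 are somite transcription factors, and both are among the markers that named the somite-like lineage. With a pseudocount of 1 in place of 10, Sfpq, Hnrnpa2b1 and Dach1 were the 3 most like Aldh1a2 instead.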

How the data were processed

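Per the labels and the study's methods, the authors aligned 10x reads with Cell Ranger 3.0.2 to mm10, called cells with emptyDrops, filtered them, and counted spliced and unspliced UMIs with velocyto; they deposited whole-number counts per cell and gene. The deposited percent of mitochondrial counts per cell, from the authors, served as a quality value. The authors' cell types were not used here. The 9 genes, the pathway lists and markers were chosen with earlier results of these data known.

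Doublets (395 tdTom+, 530 tdTom-) were called with Scrublet in scanpy 1.11.5. Clustering used 2474 variable genes without sex-linked and retinoid genes, 50 components, 20 neighbours and a Leiden resolution of 1.5. A class needed 3 markers raised 2-fold (10 CPM added), the most of any class, and no other class with more markers among the 10 leading genes; general neural markers counted only where no other class qualified. Clusters of one class were joined. UMIs were summed per lineage and fraction. Named were the 9 genes, pathway genes past the 2-fold rule or highest in a described lineage, and the 3 most similar genes with at least 500 UMIs. Intervals (95%) are exact, and a count of 0 was bounded by 3 counts. The code for folds was tested on simulated data. Alternatives were both layers summed, thinning to 5000 UMIs, doublets kept, resolutions of 1 and 2, matching of tdTom+ cells to 15 nearest tdTom- cells, subtraction of the blood level and a pseudocount of 1; unjoined clusters were added after the data were seen. The cluster of 20 cells and the shallow one led by AY036118 (median 1116 UMIs) were not described. Quality metrics listed 6 cells more than the tables. Of per-sample columns 0 were left unmatched. Some genes of the lists are not reported here.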

Additional observations from a re-analysis of the deposited data

Results flagged for a closer look

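Cyp26a1 moved past the 2-fold rule in opposite directions in different clusters, with 1 library per fraction, so the difference was not tested. The log2 fold of tdTom+ over tdTom- was 1.19 in the endothelial-like cluster led by Lyve1 (153 and 46 UMIs), -1.55 in the cardiomyocyte-like cluster led by Igfbpl1, Tlx1 and Isl1 (32 and 43 UMIs) and -1.56 in the allantois-like cluster led by Tbx4 (49 and 22 UMIs). The joined endothelial-like and allantois-like lineages gave 0.41 and -0.67, both under the rule, and the joined cardiomyocyte-like lineage gave -1.30. The allantois-like cluster led by Cdkn1c, with 245 tdTom- and 0 tdTom+ cells, held 3.94 CPM, against 4.04 CPM in the tdTom+ cells of the Tbx4-led one.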

How the results depend on the processing

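Of 9 genes, 9 kept their highest lineage with doublets kept and at a resolution of 2, 8 with both layers summed or thinned cells, and 6 at a resolution of 1. There the notochord-like cells were not apart, which moved Dhrs3 and Stra6, and Crabp1 was highest in spinal cord-like cells (2054 CPM) instead of the Vgll3-led cluster (1832 CPM, against 2909). The same resolution lowered Aldh1a2 in somite-like cells from 469 to 307 CPM and Cyp26a1 in mid- and hindgut-like endoderm from 150 to 93.4 CPM. Thinning lowered Stra6 in notochord-like cells from 43.2 to 25.9 CPM, below the 37.2 CPM of somite-like cells. Both layers summed raised Rarb in spinal cord-like cells from 53.9 to 153 CPM. The 4 pairs lower in tdTom+ (of 123, or 3.25%, against 1.05% of all genes) became 1 of 87 with thinned cells (1.15% against 0.957%) and 9 of 116 at a resolution of 1 (7.76% against 1.33%). Otherwise they lay between 3 and 6 of 121 to 160 pairs (2.38% to 4.96%, against 1.07% to 1.09% of all genes, or 3.40% with free RNA subtracted). None was higher in tdTom+, but 1 was with doublets kept and 1 with clusters not joined. The fold of Cyp26a1 in cardiomyocyte-like cells fell under the rule with thinned cells (-0.91) and doublets kept (-0.49), that of Crabp2 with doublets kept (-0.85), that of Aldh1a2 in forebrain and midbrain-like cells with both layers (-0.87) and thinned cells (-0.67), and that of Crabp1 in myeloid-like cells with doublets kept (-0.35), while thinning left it at -1.50 with too few UMIs and subtraction of free RNA gave -2.81. Thinning moved the Rarb share of receptor UMIs to 56.2% in spinal cord-like and 3.46% in caudal epiblast-like cells, and the Rarg share to 5.18% and 77.4%. Without thinning, 4.85% of presomitic cells held both Aldh1a2 and Cyp26a1 (product of the shares 10.4%), as did 5.65% of caudal epiblast-like cells (product 5.18%). With a pseudocount of 1, 4 of 9 genes kept their most similar gene. For these the cause was not tested. No paired analysis was possible because each fraction has 1 library.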
